A study of Mus musculus with 24 samples.

Results

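The Hox genes are homeobox transcription factors encoded in 4 chromosomal clusters, a to d, and numbered by paralog group from 1 to 13. Their levels were read in colon fibroblasts, array by array and between 3 genotypes. Members were all genes whose single symbol was Hox, 1 letter from a to d and digits only. This gave 33 of the 39 Hox genes that RefSeq lists in these clusters, among 30827 genes on the arrays. Cluster a held 8 of 11 genes, cluster b 9 of 10, cluster c 9 of 9 and cluster d 7 of 9. Each member had 1 probe set. Probe sets that named 2 genes at once (Hoxa7 with Mira, Hoxa9 with Mir196b, Hoxb4 with Mir10a, and Hoxd3 with Hoxd4) were left out.

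Along the trunk of the embryo, the order of Hox genes within a cluster follows the order of the body regions in which they are switched on. Genes of low paralog number start near the head, and those of high number mark the tail end, which includes the hindgut. Adult fibroblasts are known to keep part of this positional code from their site of origin. Hox proteins bind DNA together with TALE partners (Pbx, Meis and Pknox proteins), retinoic acid and Cdx factors act on the clusters in the embryo, and Polycomb and trithorax complexes hold the clusters silent or active.

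The 24 samples were RNA from mouse colon cells sorted as Epcam-CD45-CD31-gp38+, gp38 being podoplanin, and each was read on 1 Affymetrix Mouse Transcriptome Array 1.0. All mice carried ZsGreen and Villincre-ERT2, a Cre that a drug switches on and whose Villin driver works in gut epithelial cells. The labels say that the mice were induced, and neither a schedule nor an age is stated in the sources used here. The 3 genotypes were IhhWT-ApcWT with 7 arrays (written WT), IhhWT-ApcKO with 8 (ApcKO), and IhhKO-ApcKO with 9 (IhhKO_ApcKO). Apc restrains Wnt signalling and its loss starts adenomas, and Ihh is the Hedgehog ligand that epithelial cells send to the mesenchyme. Arrays are named by their sample codes, such as A1. The labels do not say that each array came from its own mouse, so p-values measure the spread between these samples.

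All values are RMA log2 values, on which 1 unit is a doubling of the signal. Array medians lay between 4.96 and 5.14. The mean of the fibroblast markers was 11.17 in WT, 11.13 in ApcKO and 11.07 in IhhKO_ApcKO, and 7 of the 8 listed were measured and lay above background on every array. Of these 7, 6 had negative differences in ApcKO minus WT (median -0.04), IhhKO_ApcKO minus ApcKO (-0.07) and IhhKO_ApcKO minus WT (-0.13), and 0 were called. The share of all genes with negative differences was 60.6%, 43.4% and 55.1%. With each array centred on its median, 4, 6 and 5 of the 7 markers were negative in the same order. The mean of 16 epithelial markers ranged from 5.79 to 7.84 over the WT arrays, from 6.12 to 8.12 over ApcKO and from 5.39 to 8.21 over IhhKO_ApcKO. Epcam, which the gate was to exclude, ran from 4.73 to 8.11. Fewer cells of a type and less RNA per cell cannot be told apart in such bulk samples. Array B9 (IhhKO_ApcKO) was the lowest of all 24 for Hoxa6, Hoxd1, Hoxd12 and Hoxd13, and leaving it out raised the genes called among all 30827 from 14 to 41 in IhhKO_ApcKO minus ApcKO and from 25 to 67 in IhhKO_ApcKO minus WT.

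The promoters of 4 members are printed because they stand for members on both sides of background. Hoxd10 and Hoxd13 lay well above it, Hoxa13 is the cluster a paralog of Hoxd13, and Hoxd1 sits in the same cluster as Hoxd10 but lay under the background limit on every array. Each run is the 250 bases before the gene's start in RefSeq, build GRCm38.p6, 5′ to 3′ on the gene's strand, with TATA box letters (TATAAA) and the retinoic acid half-site (AGGTCA) in capitals where either strand held them.
Hoxd10: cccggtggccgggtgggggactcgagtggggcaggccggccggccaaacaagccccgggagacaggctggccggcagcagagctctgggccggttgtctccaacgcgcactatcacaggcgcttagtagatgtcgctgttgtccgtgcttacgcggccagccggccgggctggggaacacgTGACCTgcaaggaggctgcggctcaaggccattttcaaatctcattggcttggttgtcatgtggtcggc
Hoxd13: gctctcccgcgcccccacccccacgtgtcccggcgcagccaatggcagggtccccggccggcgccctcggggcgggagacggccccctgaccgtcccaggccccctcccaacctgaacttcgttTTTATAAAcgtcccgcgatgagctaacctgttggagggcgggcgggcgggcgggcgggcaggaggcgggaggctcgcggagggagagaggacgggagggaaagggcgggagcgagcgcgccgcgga
Hoxa13: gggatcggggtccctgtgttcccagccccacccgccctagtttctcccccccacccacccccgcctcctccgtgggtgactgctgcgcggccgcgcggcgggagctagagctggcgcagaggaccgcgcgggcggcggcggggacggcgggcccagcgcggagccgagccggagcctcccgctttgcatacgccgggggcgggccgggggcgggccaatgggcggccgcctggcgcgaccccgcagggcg
Hoxd1: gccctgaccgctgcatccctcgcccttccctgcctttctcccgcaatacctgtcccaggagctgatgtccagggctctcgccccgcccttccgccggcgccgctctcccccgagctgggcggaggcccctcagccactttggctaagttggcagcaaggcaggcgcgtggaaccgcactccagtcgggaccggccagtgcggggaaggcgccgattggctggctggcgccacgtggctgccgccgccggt

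The Hoxd10 stretch lies at chr2:74691641-74691890 on the plus strand, and held 1 retinoic acid half-site on its reverse strand. The Hoxd13 stretch, at chr2:74667975-74668224 on the plus strand, held a TATA box whose letters match on both strands and overlap each other. Hoxa13 lies at chr6:52260881-52261130 on the minus strand and Hoxd1 at chr2:74762730-74762979 on the plus strand, and neither held a searched motif. All 4 were rich in CpG, with 20 in Hoxd10, 31 in Hoxd13, 35 in Hoxa13 and 24 in Hoxd1. Over the 19 promoters of 17 members that the RefSeq table held, the median ratio of observed to expected CpG was 0.755, beside 0.374 over all 32851 promoters. Hoxd10 and Hoxd1, on either side of background, had nearly equal ratios of 0.755 and 0.759.

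The motifs were searched on both strands of the same 250 bases. TATAAA was held by 3 of the 19 member promoters and 12.4% of all promoters. The Cdx motif TTTATG was held by 2 and 10.8%, the Meis motif TGACAG by 2 and 15.9%, and AGGTCA by 3 and 14.02%. The Gli motif GACCACCCA, bound by the Hedgehog effectors, was held by 0 of 19 and 0.225%. These letters are a description of the sequence and not of binding.

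**Figure D1:**
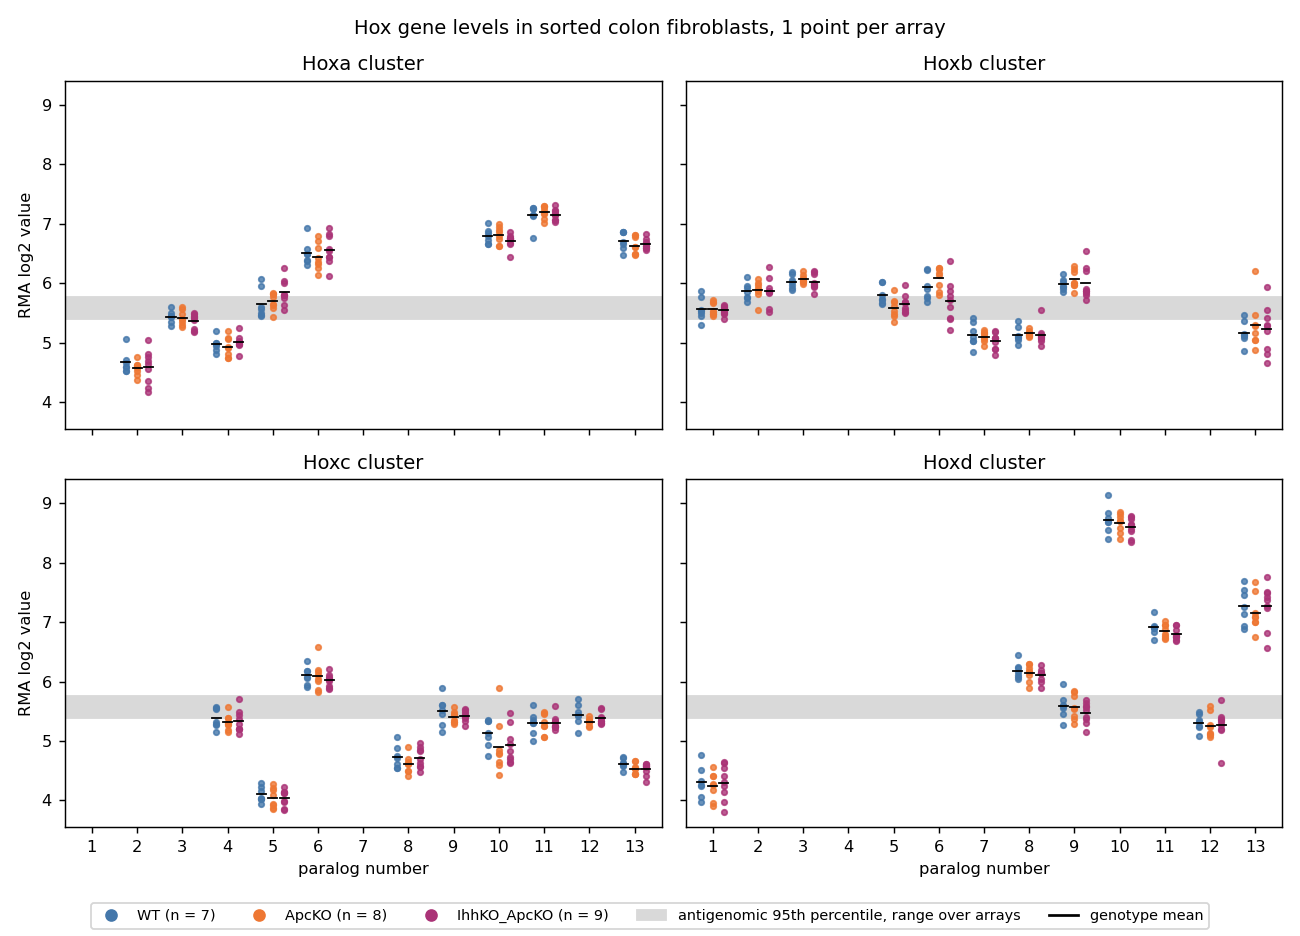
RMA log2 value of each of the 33 Hox genes on each of the 24 arrays, by cluster (panels) and paralog number (x axis), coloured by genotype, with black bars for genotype means and a grey band for the range over arrays of the 95th percentile of antigenomic background probe sets. Hoxd10 lies farthest above the band, the genes numbered 10 to 13 of clusters a and d lie above the band except Hoxd12, and those of clusters b and c do not clear it on every array.

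The genes of the tail end of clusters a and d lay above background on all arrays, with Hoxd12 as the exception, whereas those of clusters b and c did not clear it throughout. A gene was called above background on an array when it exceeded the 95th percentile of that array's 23 antigenomic probe sets, probes that match no mouse sequence. This limit lay between 5.39 and 5.76. It was the same for every gene of an array and was not matched to the GC content of a gene's probes. On all 24 arrays, 12 of 33 members (36.4%) exceeded it, beside 43.0% of all genes: Hoxa6, Hoxa10, Hoxa11, Hoxa13, Hoxb2, Hoxb3, Hoxb9, Hoxc6, Hoxd8, Hoxd10, Hoxd11 and Hoxd13. By cluster these were 4 of 8 in a, 3 of 9 in b, 1 of 9 in c and 4 of 7 in d. Among paralog groups 10 to 13, 6 of 7 genes of clusters a and d were above background on all arrays and 0 of 5 genes of clusters b and c.

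In paralog groups 1 to 4, 2 of 8 members (Hoxb2 and Hoxb3) were above the limit on all arrays, and in groups 5 to 9 it was 4 of 13. Another 8 members (Hoxa2, Hoxa4, Hoxb7, Hoxb8, Hoxc5, Hoxc8, Hoxc13 and Hoxd1) exceeded the limit on no array, and 13 did so on some arrays. Probe sets differ in affinity, so a level is set against background and not against another gene's level. The control set decides these counts: over the 95th percentile of 5222 negative control probe sets, 8.06 to 8.46, only Hoxd10 lay above on all arrays (1 of 33), and over the antigenomic median, 2.68 to 3.15, all 33 did.

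Hoxd10, a gene of the lumbar spinal cord and limb in the embryo, had a mean of 8.66, above 93.0% of the means of all genes. That is a rank of signal and not of RNA amount, because probe sets differ in affinity. Its values ran from 8.39 over a median of 8.69 to 9.14 in WT, from 8.39 over 8.71 to 8.85 in ApcKO, and from 8.36 over 8.63 to 8.79 in IhhKO_ApcKO. The highest value was on A5 (WT) and the lowest on C1 (IhhKO_ApcKO), and the 3 genotypes overlapped over most of their ranges.

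Hoxd13, the last gene of its cluster and required for digits and the anal sphincter, ran from 6.88 over a median of 7.26 to 7.70 in WT. In ApcKO it ran from 6.75 over 7.09 to 7.68, and in IhhKO_ApcKO from 6.56 over 7.38 to 7.77. The IhhKO_ApcKO arrays held both the lowest value of all, on B9, and the highest, on C7. Hoxd13 varied more within genotypes, with an SD of 0.331, than 93.9% of genes of like level.

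Hoxa13, which acts with Hoxd13 in the hindgut and limb, stayed in a narrower band. It ran from 6.47 over 6.69 to 6.86 in WT, from 6.47 over 6.61 to 6.81 in ApcKO and from 6.57 over 6.62 to 6.83 in IhhKO_ApcKO, and its SD within genotypes was 0.129. Hoxa11, a gene of the forearm and uterus, lay between 6.77 on A1 and 7.32 on C1, and the other 6 WT arrays were at 7.13 or above. Hoxa10, needed for the uterus, lay between 6.44 on C3 and 7.02 on A5. For both, the 3 genotypes overlapped.

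Hoxd11, a partner of Hoxa11 in the limb and kidney, lay between 6.69 on C1 and 7.17 on A6. Hoxd8, of the trunk, lay between 5.89 on B2 and 6.45 on A4. Their SDs within genotypes, 0.117 and 0.133, were smaller than the 0.183 of Hoxd10. Hoxd12, next to Hoxd13, exceeded the limit on 2 arrays only and lay between 4.63 on B9 and 5.70 on C9.

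Genes of head and trunk identity were also above background. Hoxa6 ran from 6.13 on B9 to 6.94 on A5, Hoxc6, known from motor neurons at forelimb level, from 5.83 on B1 to 6.58 on A9, and Hoxb9, a thoracic gene, from 5.72 on C1 to 6.54 on C9. Hoxb3, of the hindbrain and pharynx, ran from 5.81 to 6.21 and had the narrowest range of these 4. Hoxb6, which is active in the flank, exceeded the limit on 22 of 24 arrays, Hoxa5, needed for the lung, on 19, and Hoxb5, active in the embryonic gut and its neurons, on 18.

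Hoxb13 and Hoxc13, the other 2 genes of paralog group 13, were dim. Hoxb13, which is known from the prostate and the distal colon, ran from 4.86 over 5.14 to 5.46 in WT, from 4.88 over 5.22 to 6.21 in ApcKO and from 4.66 over 5.28 to 5.93 in IhhKO_ApcKO. It exceeded the limit on 6 of 24 arrays, and its SD within genotypes of 0.355 was larger than that of 95.3% of genes of like level. Hoxc13, needed for hair, lay between 4.31 on C3 and 4.72 on A2 and exceeded the limit on none. Its SD of 0.0937 was larger than that of only 9.17% of genes of like level.

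No Hox gene differed between genotypes after adjustment over all genes. Each of 3 contrasts was tested with limma and Benjamini-Hochberg adjustment over 30827 genes. In ApcKO minus WT, 0 of 33 members passed an adjusted p of 0.05, as did 0 genes in all (0%), and 1 of 33 members had an unadjusted p under 0.05, beside 4.41% of genes. In IhhKO_ApcKO minus ApcKO, 0 members passed, beside 0.0454% of genes, and 1 had an unadjusted p under 0.05, beside 4.94%. In IhhKO_ApcKO minus WT, 0 passed, beside 0.0811%, and 0 had an unadjusted p under 0.05, beside 7.62%. The ranges of the 2 genotypes overlapped for all 33 members in each contrast, and 0.00649%, 0.0227% and 0.0714% of genes in the same order had ranges that did not overlap.

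The intervals bound how large a difference in signal could be. Near background, a small difference in signal need not mean a small one in RNA, and 12 of the 33 members lay above background on all arrays. The unadjusted 95% interval lay within 0.5 log2 units of 0 for 32 of 33 members in each contrast, and within 1 for all 33. The exceptions were Hoxc10 in both comparisons with WT, where the interval reached -0.57 in ApcKO and -0.54 in IhhKO_ApcKO, and Hoxb6 in IhhKO_ApcKO minus ApcKO, where it reached -0.63. For Hoxd10 the interval was -0.24 to 0.13 in ApcKO minus WT and -0.24 to 0.11 in IhhKO_ApcKO minus ApcKO. For Hoxd13 it was -0.44 to 0.21 and -0.19 to 0.42. For Hoxa13 it was -0.22 to 0.06 and -0.10 to 0.16, so a difference beyond 0.5 in either direction lay outside the intervals of these 3 genes.

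**Figure D2:**
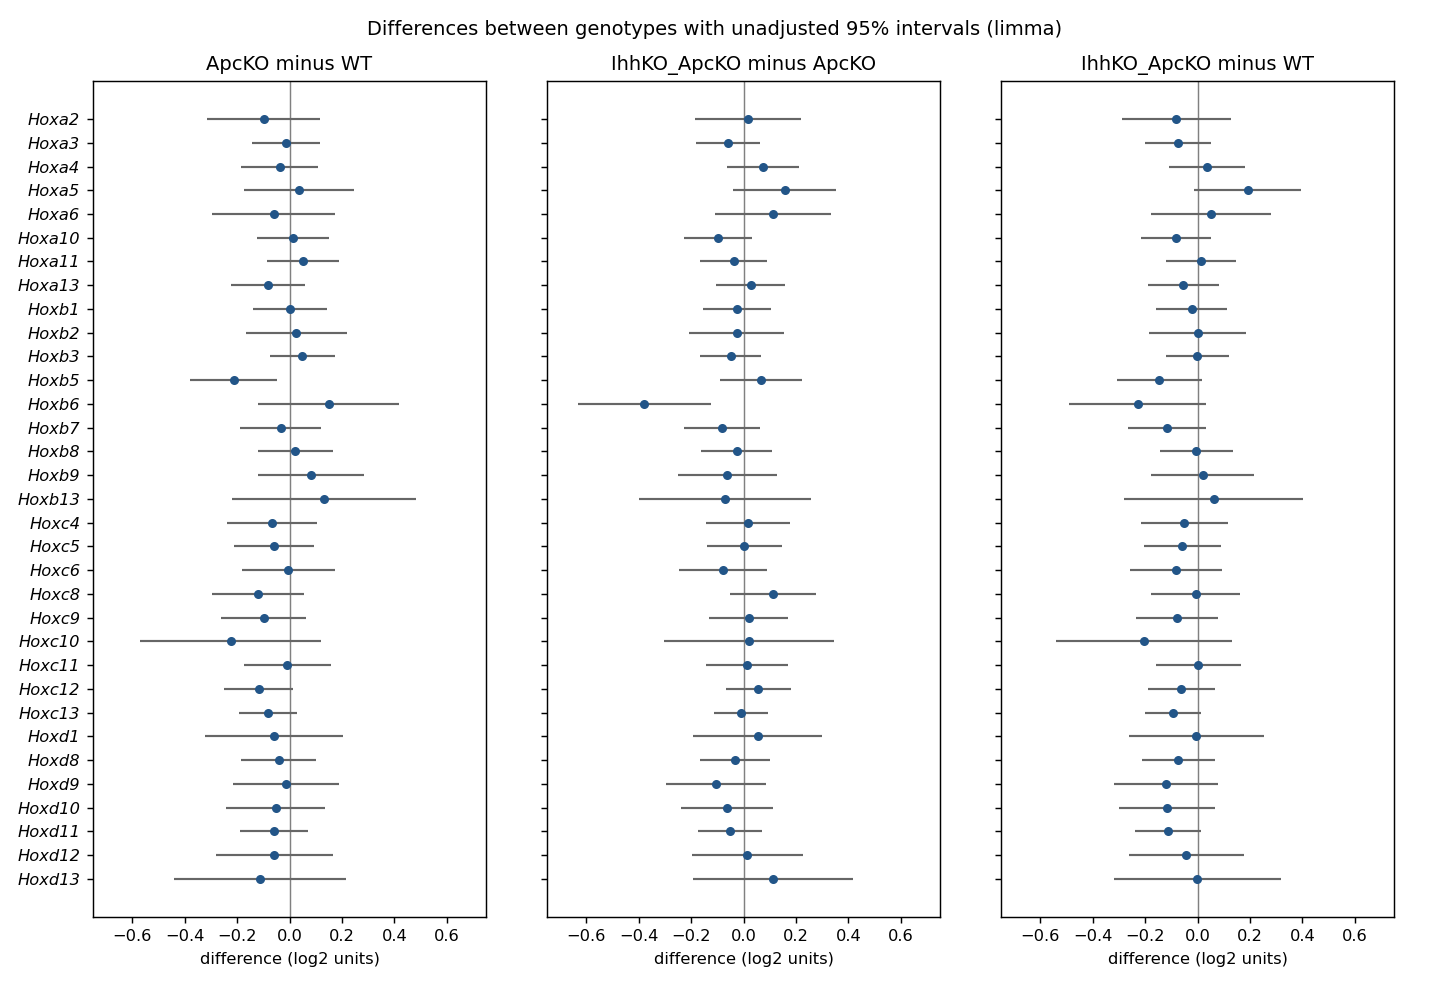
Difference in RMA log2 value between genotypes for each of the 33 Hox genes (points) with its unadjusted 95% interval from limma (lines), in the 3 contrasts. Most intervals cover 0, and those of Hoxb5 in ApcKO minus WT and Hoxb6 in IhhKO_ApcKO minus ApcKO do not.

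Hoxb6 had the smallest p of any member. It ran from 5.68 over a median of 5.90 to 6.24 in WT, from 5.79 over 6.15 to 6.26 in ApcKO and from 5.21 over 5.71 to 6.38 in IhhKO_ApcKO. In IhhKO_ApcKO, 6 arrays of 9 were under the lowest ApcKO array, while C7 was over the highest. The difference from ApcKO was -0.38 (SE 0.123, 95% interval -0.63 to -0.13), a fold size of 1.30, with an adjusted p of 0.539 by limma, and -0.37 without B9. Against WT it was -0.23 (adjusted p = 0.72). The 8 markers of smooth muscle and pericytes, all above background on every array, had negative differences in IhhKO_ApcKO too. From ApcKO 8 of 8 were negative, with a median of -0.25, beside 43.4% of all genes. From WT 8 of 8 were negative, with a median of -0.22, beside 55.1% of all genes. With median centring 8 of 8 markers were negative in both, and 0 markers were called. Their mean ranged from 7.30 to 7.75 over the WT arrays, from 7.29 to 7.71 over ApcKO and from 6.93 to 7.47 over IhhKO_ApcKO. Acta2, the actin of smooth muscle, had -0.56 from ApcKO (adjusted p = 0.233 by limma). The part of these cells in the IhhKO_ApcKO differences was not tested.

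Hoxb5 ran from 5.65 over 5.73 to 6.02 in WT, from 5.36 over 5.57 to 5.89 in ApcKO and from 5.50 over 5.66 to 5.97 in IhhKO_ApcKO. In ApcKO, 5 of 8 arrays lay below every WT array and 1 lay above the WT mean. The difference was -0.21 (SE 0.0808, 95% interval -0.38 to -0.05), with an adjusted p of 0.97 by limma. IhhKO_ApcKO minus WT gave -0.15, with 8 of 9 arrays below the WT mean (adjusted p = 0.707). Both comparisons share the WT arrays.

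Hoxa5 ran from 5.45 over 5.57 to 6.07 in WT, from 5.43 over 5.71 to 5.84 in ApcKO and from 5.55 over 5.81 to 6.26 in IhhKO_ApcKO. In IhhKO_ApcKO, 7 of 9 arrays lay above the WT mean and 7 above the ApcKO mean, and the ranges overlapped. The difference was 0.19 from WT (SE 0.099, adjusted p = 0.686 by limma) and 0.16 from ApcKO (SE 0.0954, adjusted p = 1.00). With the letter of the sample code as a block, a fit that rests on A9 and B9 alone, it was 0.04 from WT and -0.13 from ApcKO.

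The remaining members with the smallest p were mostly at or below the background limit. In ApcKO minus WT these were Hoxc12 (-0.12, from 5.14 over 5.44 to 5.70 in WT and from 5.24 over 5.33 to 5.43 in ApcKO), Hoxc13 (-0.08) and Hoxc8 (-0.12). Hoxc8 ran from 4.55 over 4.72 to 5.06 in WT, from 4.41 over 4.61 to 4.89 in ApcKO and from 4.48 over 4.70 to 4.96 in IhhKO_ApcKO, below the limit throughout. In IhhKO_ApcKO minus ApcKO, Hoxa10 had -0.10, with 8 of 9 arrays below the ApcKO mean, and Hoxc8 had 0.11. In IhhKO_ApcKO minus WT, Hoxd11 had -0.11 (95% interval -0.24 to 0.01, adjusted p = 0.716 by limma), with 7 of 9 arrays below the WT mean.

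**Figure D3:**
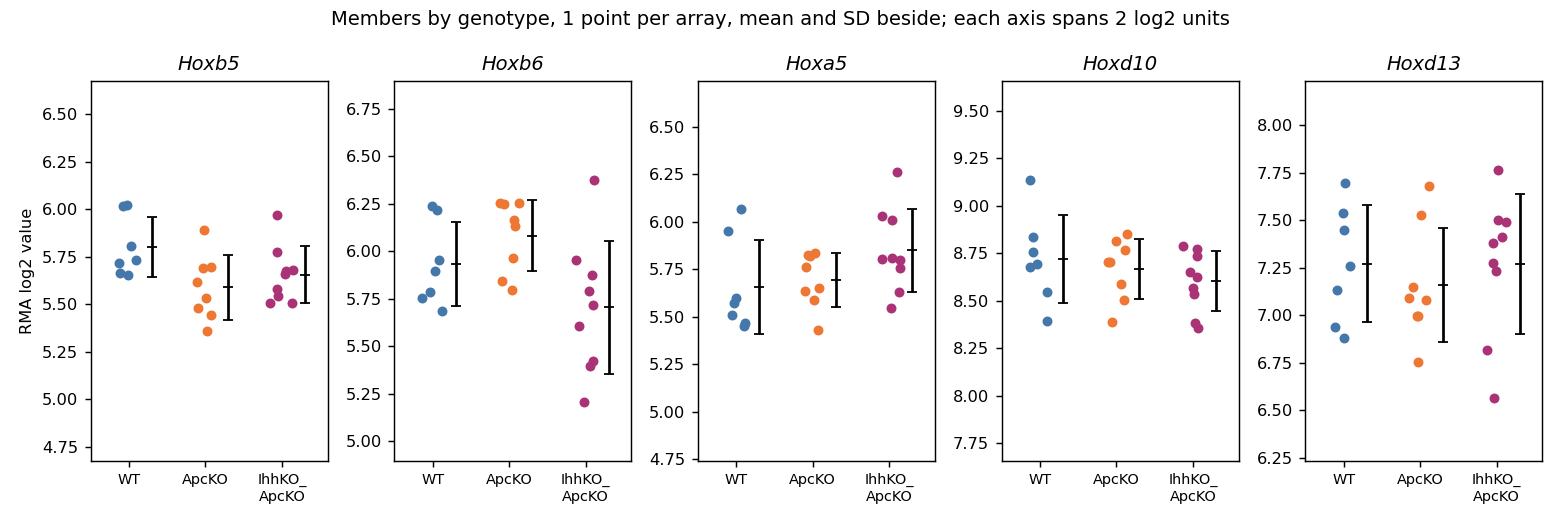
RMA log2 value of Hoxb5, Hoxb6, Hoxa5, Hoxd10 and Hoxd13 on each array (points) by genotype, with the mean and SD beside each group (7 WT, 8 ApcKO and 9 IhhKO_ApcKO arrays); each axis spans the same length around the gene's mean. The genotypes overlap for all 5 genes, and Hoxb6 has 6 IhhKO_ApcKO arrays below all ApcKO arrays.

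Across the members, small negative differences were more frequent than positive ones in both comparisons with WT, and the split was nearly even in IhhKO_ApcKO minus ApcKO. In ApcKO minus WT 10 members were positive and 23 negative (69.7% negative, beside 60.6% of all genes), with a median difference of -0.04 beside -0.02 over all genes. In IhhKO_ApcKO minus ApcKO the split was 16 and 17 (51.5% beside 43.4%), with a median of -0.01 beside 0.01. In IhhKO_ApcKO minus WT it was 7 and 26 (78.8% beside 55.1%), with a median of -0.05 beside -0.01. The split depends on the scaling. With each array centred on its median it became 14 positive and 19 negative, 16 and 17, and 14 and 19 in the same order. Under that scaling the median difference over all genes was 0.0039, 0.0115 and 0.0145, and the share of all genes that were negative is not given here.

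By cluster, the 9 genes of cluster c and the 7 of cluster d were all negative in ApcKO minus WT, with medians of -0.08 and -0.06, while with median centring 7 of 9 and 6 of 7 were. Of these genes, 1 of 9 in cluster c and 4 of 7 in cluster d lay above background on all arrays. The genes of a cluster share the same arrays, so their signs are not independent counts. In cluster b, 7 of 9 were positive under both scalings. In IhhKO_ApcKO minus ApcKO, 7 of 9 genes of cluster c were positive and 8 of 9 of cluster b negative. Both contrasts use the ApcKO arrays, so their signs are not independent. The differences in cluster d in ApcKO minus WT lay between -0.11 and -0.01, within the intervals given above.

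Hoxb13 varied from array to array with the epithelial markers. On C3, the array with the lowest epithelial mean (5.39), Hoxb13 was at 4.66, its lowest. On C9 and B8, with the highest epithelial means (8.21 and 8.12), it was at 5.93 and 6.21, its highest values. With each genotype's mean removed, r was 0.82 over 24 arrays and Spearman's rho 0.862, each with a permutation p of 1e-05, the smallest that 100000 resamples within genotype can give (adjusted p = 0.0001 over 10 relations). Without C3 and C9, the 2 arrays farthest from the median, r was 0.754. Within genotypes r was 0.578 in WT, 0.794 in ApcKO and 0.958 in IhhKO_ApcKO, and with any 1 array left out it stayed between 0.788 and 0.865. The epithelial mean also went with the number in the sample code, which the labels do not explain: the 3 arrays numbered 3 lay between 5.39 and 6.12, and the 3 numbered 9 between 7.51 and 8.21. With the number removed as well as the genotype, and permutation within the number, r was 0.712 and no longer passed (adjusted permutation p = 0.12 over the 10 relations).

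The relation of the epithelial mean to the genes of paralog group 13 that lay above background did not pass the test over 24 arrays. For Hoxd13 r was 0.119 (rho 0.0904, adjusted permutation p = 0.758 and 0.763) and for Hoxa13 it was -0.24 (rho -0.22, adjusted permutation p = 0.51 and 0.683). Within WT, ApcKO and IhhKO_ApcKO r was -0.03, 0.151 and 0.175 for Hoxd13, and -0.10, -0.79 and 0.24 for Hoxa13. Whether r differed between genotypes was not tested. With the code number removed as well as the genotype, r was 0.556 for Hoxd13 (adjusted permutation p = 0.314). For Hoxa13 it was then -0.17 (adjusted permutation p = 0.839). On C9, with the highest epithelial mean, Hoxd13 was at 7.41, and on C3, with the lowest, it was at 7.24. For Hoxc13, r was 0.523 (adjusted permutation p = 0.0485) and rho 0.393 (adjusted permutation p = 0.233). The call for Hoxc13 was lost without C3 (r = 0.374), and passed in 8 of 24 fits that left out 1 array, and r was 0.118 with the code number removed.

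Among the 4 genes of group 13 themselves, only Hoxb13 and Hoxc13 gave an r past the threshold, 0.582 (adjusted permutation p = 0.0222), with rho 0.489 (adjusted permutation p = 0.107). It was lost without A3 (0.557), without B8 (0.526), without C3 (0.49) or with the code number removed (0.339), and Hoxc13 lay below the background limit on every array. Hoxb13 with Hoxd13 gave 0.271 (rho 0.135) and Hoxa13 with Hoxd13 gave -0.19 (rho -0.16), with adjusted permutation p from 0.51 to 0.683. Hoxa13 with Hoxb13 gave -0.17 (rho -0.14), Hoxa13 with Hoxc13 -0.06 (rho -0.18) and Hoxc13 with Hoxd13 0 to 2 decimals (rho 0.0357), with adjusted permutation p from 0.65 to 0.998 for r.

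**Figure D4:**
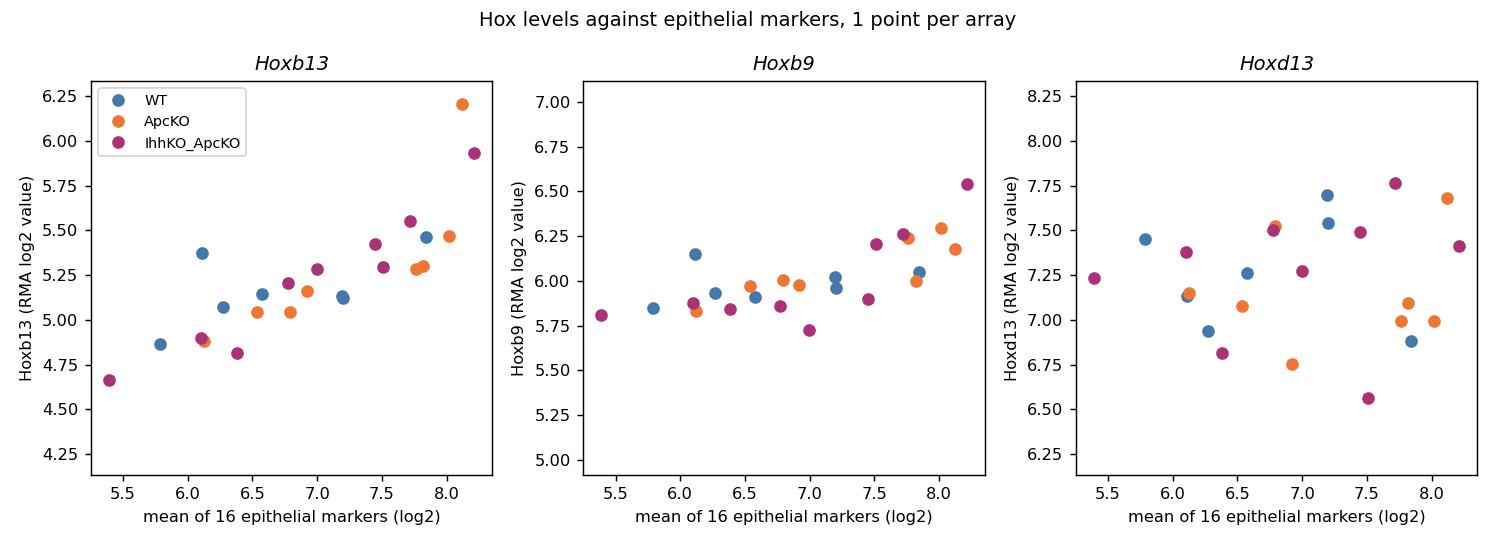
RMA log2 value of Hoxb13, Hoxb9 and Hoxd13 (y axes, equal length) against the mean of 16 epithelial markers (x axis, log2) on each of the 24 arrays, coloured by genotype. Hoxb13 climbs from 4.66 on the array with the lowest epithelial mean to 5.93 and 6.21 on the 2 highest, and Hoxb9 climbs less. For Hoxd13 r is 0.119 with genotype means removed, and 0.556 with the code number removed too.

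Over all 33 members, 4 had an r above 0.5 with the epithelial mean (12.1%), beside 4.65% of all genes: Hoxb13, Hoxb9 (0.693), Hoxc13 and Hoxb7 (0.506). An r below -0.5 was found for 0 members and 3.39% of genes. An r at least as high as that of Hoxb13 was found for 0.574% of genes, and for Hoxb9 the share was 1.43%. Cluster a held the lowest values, -0.43 for Hoxa11, -0.42 for Hoxa4, -0.39 for Hoxa5 and -0.38 for Hoxa6. These correlations are descriptions, because each point shares its array and its normalization with every gene, and the part of epithelial RNA in them was not tested.

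**Figure D5:**
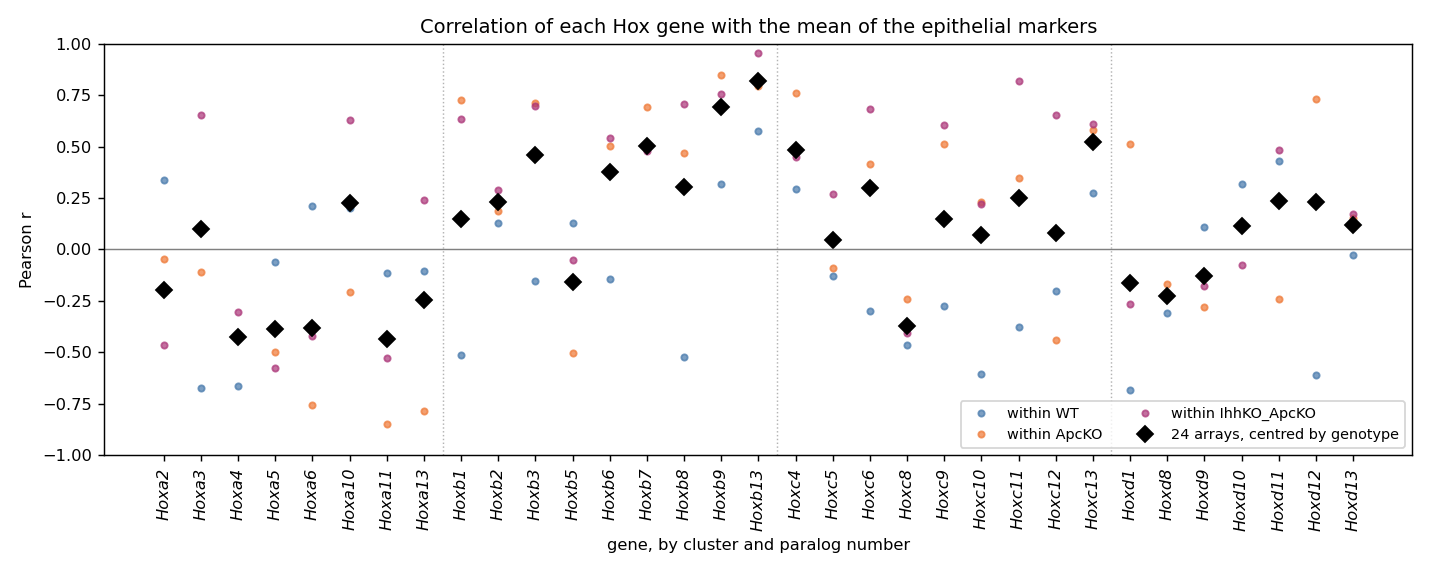
Pearson r of each of the 33 Hox genes with the mean of the epithelial markers, over 24 arrays centred by genotype (black diamonds) and within each genotype (coloured points), ordered by cluster and paralog number. Hoxb13 and Hoxb9 have the highest r, 0.82 and 0.693, and 6 of the 8 cluster a genes lie below 0 over the 24 arrays.

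The epithelial markers had 15 positive differences out of 16 (16 with median centring) in ApcKO minus WT, with a median of 0.56, and 15 negative ones in IhhKO_ApcKO minus ApcKO, with a median of -0.24. In IhhKO_ApcKO minus WT 12 were positive (13 with median centring), with a median of 0.32, and 0 of 16 were called in each contrast. With the epithelial mean as a covariate, the difference of Hoxb6 between IhhKO_ApcKO and ApcKO was -0.34 and that of Hoxb5 between ApcKO and WT was -0.20, and 0 members were called in each contrast.

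The DNA-binding partners of Hox proteins were present and did not pass the test. Of 9 TALE genes listed, 8 were measured and 7 lay above background on all arrays. Meis2 had a mean of 8.58 and Meis1 of 8.16. Genes called were 0 of 8 in each contrast. The smallest p belonged to Pknox2 in ApcKO minus WT (0.17, from 7.33 ± 0.212, n = 7, to 7.50 ± 0.187, n = 8, SD), Meis1 in IhhKO_ApcKO minus ApcKO (0.14) and Meis2 in IhhKO_ApcKO minus WT (0.08).

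The Cdx and ParaHox genes, which pattern the gut tube upstream of or beside the Hox clusters, were dim. All 6 were measured, 0 lay above background on all arrays and 0 were called in each contrast. Cdx1 and Cdx2, which are intestinal epithelial factors in the adult and stand among the 16 epithelial markers too, exceeded the limit on 4 and 7 arrays. Gsx1 had the smallest p, with -0.12 in ApcKO minus WT and -0.12 in IhhKO_ApcKO minus WT, at levels below the limit on every array.

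Of 21 Polycomb and trithorax genes listed, 19 were measured, 19 lay above background on all arrays and 0 were called in each contrast. Cbx8, a Polycomb subunit that reads methylated histone H3, had -0.13 in ApcKO minus WT (adjusted p = 0.97 by limma), and Wdr5, a trithorax subunit, had 0.14 in IhhKO_ApcKO minus WT (adjusted p = 0.671).

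The list of retinoic acid receptors and enzymes with Gdf11 and Fgf8 had 13 of 13 genes measured and 10 above background on all arrays, and 0 were called. In ApcKO minus WT all 13 differences were negative (12 of 13 with median centring), with a median of -0.06, beside 60.6% of all genes. Aldh1a3, an enzyme that makes retinoic acid, had -0.25 there (SE 0.115, adjusted p = 0.97 by limma). Aldh1a1, of the same family, had -0.34 in IhhKO_ApcKO minus ApcKO (SE 0.135, adjusted p = 0.826) and -0.40 in IhhKO_ApcKO minus WT (SE 0.14, adjusted p = 0.411), and Aldh1a2 had -0.26 in the latter (adjusted p = 0.581).

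The regional homeobox and T-box genes of the gut mesenchyme held the gene nearest to the threshold. Of 22 listed, 20 were measured, 14 lay above background on all arrays and 0 were called. Foxl1, a forkhead factor of the cells beneath the epithelium and a known Hedgehog target, was at 6.36 ± 0.128 in IhhKO_ApcKO (SD, n = 9) and 6.73 ± 0.135 in ApcKO (SD, n = 8). That difference was -0.37 (SE 0.0718, adjusted p = 0.051 by limma), and -0.32 against WT (SE 0.0745, adjusted p = 0.108). Foxf1 had -0.12 in IhhKO_ApcKO minus ApcKO and Nkx2-3, of the gut and spleen mesenchyme, -0.22 against WT. In ApcKO minus WT the smallest p belonged to Tbx5 (-0.28) and Tbx4 (-0.19), limb genes of the fore and hind limb, each with an adjusted p of 0.97.

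The noncoding genes within the Hox clusters were measured for 11 of 21, of which 2 lay above background on all arrays: Hoxa11os, the antisense gene of Hoxa11, between 6.17 and 6.60, and Hoxb5os between 6.49 and 6.97. Hotair, of cluster c, lay between 4.27 and 4.97, and Hottip, beside Hoxa13, between 4.87 and 5.80. None of the 11 was called in a contrast by limma. In IhhKO_ApcKO minus ApcKO the smallest p belonged to Hoxd3os1 (0.05) and Hottip (0.10), and in ApcKO minus WT to Hotair (-0.12) and Mir196a-2 (-0.18). In IhhKO_ApcKO minus WT it belonged to Mir615 (-0.20) and Hoxb3os (-0.11). Whether probes for an antisense gene and its partner separate the strands was not tested.

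From the microRNAs of the clusters, 2 are shown because both are known to target Hox transcripts, with the seed (bases 2 to 8) in capitals as RefSeq gives them in build GRCm38.p6.
miR-10b-5p: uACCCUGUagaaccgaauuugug
miR-196a-5p: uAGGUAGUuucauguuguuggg
miR-10b-5p comes from Mir10b at chr2:74726074-74726096 in cluster d. miR-196a-5p comes from Mir196a-1 at chr11:96265187-96265208 in cluster b and Mir196a-2 at chr15:102973365-102973386 in cluster c, all on the plus strand. The 2 have different seeds. The probe sets of the hairpin genes were dim, with means of 2.71 for Mir10b, 3.32 for Mir196a-1 and 4.29 for Mir196a-2, so no level of the mature forms is given.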

How the data were processed

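The authors deposited log2 expression values from RMA, per the submitters' processing notes. Neither the RMA version nor a genome build is stated in the sources used here. The table held 72688 probe sets in 24 columns. After 6732 control probe sets were left out, 31388 of 65956 transcript clusters had 1 gene in the platform annotation, 1362 had several and 33206 none. The probe set with the highest mean stood for each of 423 genes with more than 1, which gave 30827 genes with no filter on dim ones. Groups were taken from the genotype in the labels. No 2 arrays were identical. Depth is not defined for arrays, and their number limits the precision.

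Differences were fitted by limma (version 3.58.1, R 4.3.3) through lmFit and plain eBayes without a trend, with all 24 arrays in 1 model and Benjamini-Hochberg adjustment over 30827 genes at 0.05. The script was tested on simulated data. Correlations used values centred on the genotype mean with 100000 permutations within genotype. Named with values were the 12 members with the highest mean, paralog group 13 and the 4 smallest p per contrast, and up to 2 genes of each list per contrast. For some of these members the range is given over all 24 arrays and not by genotype. Members, lists and tests were chosen with earlier results of these data known, and the motifs after the data were seen. Alternatives were trend and robust fits, array weights, median centring, filters, the epithelial mean as covariate, the code letter or code number as block and each array left out. Further checked marker lists gave 0 genes called in each contrast: leukocyte (9 of 10 measured), blood endothelium (6 of 6), enteric glia and neurons (6 of 8), smooth muscle and pericyte (8 of 8), interstitial cells of Cajal (2 of 3) and mesothelium (4 of 4). Of the leukocyte markers, 8 were positive and 1 negative in IhhKO_ApcKO, both from ApcKO (median 0.07) and from WT (median 0.06), and 1 of the 9 lay above background on all arrays.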

Additional observations from a re-analysis of the deposited data

Results flagged for a closer look

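Within each genotype, the highest and lowest array of every member was compared with its neighbours by Dixon's criterion. Past it were 8 of 99 groups, where the nominal rate is about 1 in 20. The share of all genes past the criterion was not computed, and the groups share arrays, so no excess is claimed for the Hox genes. In WT, A5 was high for Hoxa2 (5.05, next 4.72) and for Hoxa6 (6.94, next 6.57), and A1 was low for Hoxa11 (6.77, next 7.13). In ApcKO, B8 was high for Hoxb13 (6.21, next 5.47), and it held the highest epithelial mean of that genotype, 8.12. In IhhKO_ApcKO, C9 was high for Hoxb8 (5.56, next 5.16) and Hoxc11 (5.58, next 5.36), C3 was low for Hoxa10 (6.44, next 6.66), and B9 was low for Hoxd12 (4.63, next 5.19). C9 held the highest and C3 the lowest epithelial mean of the 24 arrays, 8.21 and 5.39. The part of epithelial RNA in these values was not tested.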

How the results depend on the processing

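Under each of 33 alternatives per contrast, 0 Hox genes were called, and the smallest adjusted p of a member was 0.181 in ApcKO minus WT, 0.19 in IhhKO_ApcKO minus ApcKO and 0.129 in IhhKO_ApcKO minus WT. The sign was the same under every alternative for 13, 13 and 11 of 33 members. Calls over all genes ranged from 0 to 113, from 8 to 65 and from 12 to 84, and the code letter as block, which rests on A9 and B9 alone, gave 113, 53 and 84. That block turned Hoxa5 in IhhKO_ApcKO minus ApcKO to -0.13, and the other 32 alternatives gave 0.11 to 0.19. Hoxb6 in the same contrast ranged from -0.46 to -0.32 over those 32. Above background, the count was 1 with the 95th percentile of the negative controls, 33 with the antigenomic median and 15 for members above the limit on at least 12 arrays. For Hoxc13 and the epithelial mean, r was 0.37 without centring (adjusted permutation p = 0.25), 0.383 without the 2 farthest arrays (0.289) and 0.374 to 0.602 with 1 array left out. For Hoxb13 and Hoxc13, r was 0.473 without centring (adjusted permutation p = 0.102), 0.568 without the 2 farthest arrays (0.0612) and 0.49 to 0.654 with 1 array left out. For the correlations, leaving out each array other than B9 in turn was added after the data were seen. The cause of these changes was not tested. The number in the sample code recurs across genotypes, and the labels do not say what it marks. Deviations from the genotype means over all genes were correlated between arrays of different genotypes. The r was above 0.1 in 12 of 20 same-numbered pairs (median r 0.132) and in 43 of 171 other such pairs (median -0.02). Of the 24 arrays, 5 correlated best with an array of their own number. Whether same-numbered arrays share more than the number was not tested. With that number as a replicate block, added after the data were seen, calls over all genes were 0, 16 and 14, and Hoxb6 in IhhKO_ApcKO minus ApcKO was -0.43 (adjusted p = 0.264 by limma). In the correlations, that block gave an r of 0.712 for Hoxb13 and the epithelial mean (adjusted permutation p = 0.12), 0.118 for Hoxc13 and the epithelial mean (0.839) and 0.339 for Hoxb13 and Hoxc13 (0.839). For Hoxd13 and the epithelial mean the block raised r from 0.119 to 0.556 (adjusted permutation p = 0.314). Signal near background limits what can be said of the 21 members that did not exceed it on every array.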

Other observations

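With genotype means removed, the r of 2 Hox genes across arrays exceeded 0.5 in 23 of 121 pairs within a cluster (19.0%), in 26 of 407 pairs across clusters (6.39%) and in 5.28% of all gene pairs. Among the 66 pairs of members that were both above background on all arrays, within a cluster or across, 4 had such an r (6.06%). Of these pairs, 15 lay within a cluster, and 2 of the 15 had such an r (13.3%). These shares are descriptions over 24 arrays that every pair has in common, and the difference between them was not tested.

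The highest r was between Hoxc6 and Hoxc10 (0.738, Spearman's rho 0.583) of cluster c, and it was 0.542 without A9. A9 (ApcKO) had the highest value of both genes, 6.58 for Hoxc6 and 5.89 for Hoxc10. The next was Hoxb1 with Hoxc9, of different clusters, with 0.730 (0.601 without A2). Hoxb9 with Hoxb13 gave 0.712 (0.613 without C9) and Hoxb3 with Hoxc4, also of different clusters, 0.687 (0.617 without C9). In cluster d, Hoxd12 with Hoxd13 gave 0.509, whereas Hoxd10 with Hoxd13 gave -0.08 and Hoxd11 with Hoxd13 -0.07. B9 (IhhKO_ApcKO) had the lowest value of both Hoxd12 (4.63) and Hoxd13 (6.56), and the r of this pair without B9 was not computed. Hoxd12 exceeded the background limit on 2 arrays only.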
